A study of Mus musculus with 11 samples.

Results

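Bcan, Ndrg2, Aldoc, Apoe, Slc1a3, Fabp7, Tnc, Ptprz1, Sparcl1 and Mfge8 are genes of late radial glia and young astroglia, and their mRNA levels were followed through 11 RNA-seq libraries of embryonic mouse forebrain. These 10 genes of the 46078 in the count tables were taken as a named list, each symbol matched to 1 gene identifier, and all 10 passed the filter on low counts in every comparison. The genes were chosen by their CPM across the 5 sample groups, with earlier results of these libraries known and without a stated contrast or threshold, so the counts and medians of the list below describe it and do not test it.

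The libraries were made from CD-1 mice. For the gain of L3mbtl3, wild-type embryos were electroporated in utero in the dorsal telencephalon at E12.5 with pCIG2-L3mbtl3, and the cells that carried GFP were collected by sorting at E15.5 (3 libraries). Their controls were wild-type cells electroporated with the empty plasmid pCIG2 and sorted in the same way (3 libraries). For the loss of L3mbtl3, unsorted dorsal telencephalon was taken at E12.5 from embryos labelled L3mbtl3 -/- (2 libraries), and the controls were L3mbtl3 +/- (2 libraries) and wild-type (1 library), as the series' design groups them. The sorted cells are those that took up the plasmid and their GFP-positive descendants, and the promoter that drives L3mbtl3 is not given in the sources used here, nor is the region that the L3mbtl3 allele lacks or whether embryos were pooled. Nothing given ties each replicate to its own embryo. The p-values therefore reflect the spread among these libraries alone, which may be partly technical.

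L3mbtl3 itself, an MBT-domain gene whose protein binds chromatin, had 1411, 1158 and 824 CPM (counts scaled to a common library total) in the gain libraries, against 51.5, 46.4 and 53.0 CPM in the GFP controls. In the libraries labelled knockout it had 74.5 and 77.2 CPM, against 61.5 and 64.1 CPM in the heterozygotes and 64.7 CPM in the wild type. It was thus not lower but higher in the libraries labelled knockout (log2 fold change 0.27, SE 0.05, adjusted p = 0.0128, edgeR's quasi-likelihood test, adjusted by Benjamini-Hochberg). Gene counts that may include exons outside a deletion do not check the label, and every direction below that involves these libraries rests on it. Library totals ran from 16527551 to 26658718 counts, so that 3 counts, the limit a count of 0 allows, were 0.113 to 0.182 CPM, far below every member. Among the sorted libraries the GFP controls stood far apart from each other, with summed ventral telencephalon markers of 782, 241 and 12.7 CPM in replicates 1, 2 and 3. Their summed apical progenitor markers were 1766, 1294 and 796 CPM, and their summed pan-neuronal markers were 7824, 9291 and 11120 CPM. The ventral markers varied widely in the gain libraries too, at 202, 192.9 and 11.45 CPM in replicates 1, 2 and 3. Their apical progenitor markers, at 1201 to 1309 CPM, and pan-neuronal markers, at 9235 to 9428 CPM, lay closer together. By Xist and Y-linked genes, gain replicates 1 and 3 and knockout replicate 2 were female and the other 8 libraries male.

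Radial glia are the stem cells that line the ventricle of the developing cortex. They make neurons first and turn to making astrocytes and oligodendrocytes later in gestation, and while they mature they take up transcripts that astrocytes will keep, for matrix proteins, glutamate uptake, glycolysis and lipid transport. Notch signalling, which acts through the DNA-binding protein Rbpj, is known to maintain radial glia, and Fabp7 is a known Notch target in them.

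The promoters of the members are shown because some of the genes ran alike over the libraries and others did not. With each stage centred, Slc1a3 and Fabp7 correlated at 0.983, the highest of all pairs, and Apoe and Ptprz1 at -0.724, the lowest. A match to the Rbpj core letters is the feature by which the promoters can be set beside all others. Control of the members by Rbpj was not tested. RefSeq (GRCm38.p6) held the 250 bases before a start site for 9 of the 10 genes, all but Sparcl1. Ndrg2 and Apoe had 3 such windows each, and Aldoc and Tnc 2 each. For these, only the window nearest the 5′ end of the gene as counted was read. Of these 9 genes, 4 (Aldoc, Fabp7, Tnc and Mfge8) held TGGGAA on either strand, against 21.6% of all 32851 windows of that length. Slc1a3 held none, though it correlated at 0.983 with Fabp7 and at 0.968 with Tnc. The octamer of POU factors, ATGCAAAT on either strand, was in the Tnc window and in no other member's, against 1.60% of all windows. There it did not overlap the Rbpj core, and a match is only a match of letters. CpG dinucleotides numbered 2 (Slc1a3) to 22 (Ptprz1), with 16 in Bcan, around a median of 6 in all windows. The windows below run 5′ to 3′ on the strand of the gene, and capitals mark TGGGAA or its reverse complement TTCCCA. They lie at chr3:88000357-88000606 on the minus strand (Bcan), chr11:78322823-78323072 on the plus strand (Aldoc), chr10:57784673-57784922 on the plus strand (Fabp7), chr4:64047016-64047265 on the minus strand (Tnc) and chr7:79149061-79149310 on the minus strand (Mfge8).
Bcan: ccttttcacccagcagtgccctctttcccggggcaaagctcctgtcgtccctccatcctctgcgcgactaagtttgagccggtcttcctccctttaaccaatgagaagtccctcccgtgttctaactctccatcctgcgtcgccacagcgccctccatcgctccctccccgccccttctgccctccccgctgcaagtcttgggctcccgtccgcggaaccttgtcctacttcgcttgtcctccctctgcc
Aldoc: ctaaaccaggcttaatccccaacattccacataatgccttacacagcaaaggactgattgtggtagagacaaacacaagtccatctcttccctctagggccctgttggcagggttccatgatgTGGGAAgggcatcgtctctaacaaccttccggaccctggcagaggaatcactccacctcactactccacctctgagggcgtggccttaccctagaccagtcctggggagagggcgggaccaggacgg
Fabp7: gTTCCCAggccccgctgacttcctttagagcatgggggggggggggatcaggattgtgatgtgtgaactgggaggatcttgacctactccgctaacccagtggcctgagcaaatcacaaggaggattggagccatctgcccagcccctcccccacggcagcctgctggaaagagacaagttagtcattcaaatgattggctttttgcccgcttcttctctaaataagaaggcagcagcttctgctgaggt
Tnc: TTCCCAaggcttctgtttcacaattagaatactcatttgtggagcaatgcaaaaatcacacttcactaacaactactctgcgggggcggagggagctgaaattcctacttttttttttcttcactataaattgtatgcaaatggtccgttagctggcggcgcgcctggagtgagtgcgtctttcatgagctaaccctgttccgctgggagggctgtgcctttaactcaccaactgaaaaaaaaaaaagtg
Mfge8: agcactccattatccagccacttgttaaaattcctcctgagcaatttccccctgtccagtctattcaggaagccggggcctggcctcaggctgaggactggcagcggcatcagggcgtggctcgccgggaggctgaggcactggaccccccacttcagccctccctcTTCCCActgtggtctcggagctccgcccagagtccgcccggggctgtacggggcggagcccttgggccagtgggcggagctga
The core began 127 bases before the RefSeq start of Aldoc, 249 before that of Fabp7, 250 before that of Tnc and 83 before that of Mfge8. For Aldoc and Fabp7 that start lay 105 and 42 bases inside the gene as counted, so part of each window is within the gene. Bcan, the member with the largest fold change in the labelled knockout, held no core in this window.

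Levels can be set side by side between genes only per length, as TPM (counts per kilobase, scaled to a common total). Fabp7, which encodes the brain lipid-binding protein of radial glia, had the highest TPM of the 10 in every group. It averaged 752 ± 133 TPM in the gain libraries and 877 ± 528 TPM in the GFP controls (SD, n = 3 each), 801 ± 21.7 TPM in the libraries labelled knockout (SD, n = 2) and 948 ± 23.3 TPM in the E12.5 controls (SD, n = 3). The range of its GFP controls took in every other group, while the gain libraries, at 646 to 901 TPM, lay below the E12.5 controls, at 922 to 967 TPM. At the other end stood Bcan in the sorted E15.5 cells, with 9.96 ± 2.10 TPM after gain and 5.29 ± 2.23 TPM in GFP controls (SD, n = 3 each), and Tnc in E12.5 tissue, with 5.58 ± 0.879 TPM in the libraries labelled knockout (SD, n = 2) and 7.62 ± 0.684 TPM in the controls (SD, n = 3). Ptprz1 was next after Fabp7 in both sorted groups, at 145 ± 12.4 TPM after gain and 121 ± 27.7 TPM in GFP controls (SD, n = 3 each), where Mfge8 came after it. In E12.5 tissue Aldoc was next, at 106 ± 19.5 TPM in the libraries labelled knockout (SD, n = 2) and 212 ± 5.52 TPM in the controls (SD, n = 3). In the GFP controls Ndrg2 and Aldoc were neighbours in the order, at 79.8 ± 34.9 and 81.2 ± 31.5 TPM (SD, n = 3). Around them stood Tnc, Sparcl1 and Mfge8, at 61.4 ± 44.97, 65.8 ± 20.2 and 118 ± 57.1 TPM. These SDs hold a difference between libraries that the genes shared. Mfge8, at 178, 111 and 64.3 TPM, lay above Ndrg2, Aldoc, Tnc and Sparcl1 in each GFP control. The order of Ndrg2 and Aldoc, and that of Tnc and Sparcl1, changed between libraries.

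**Figure D1:**
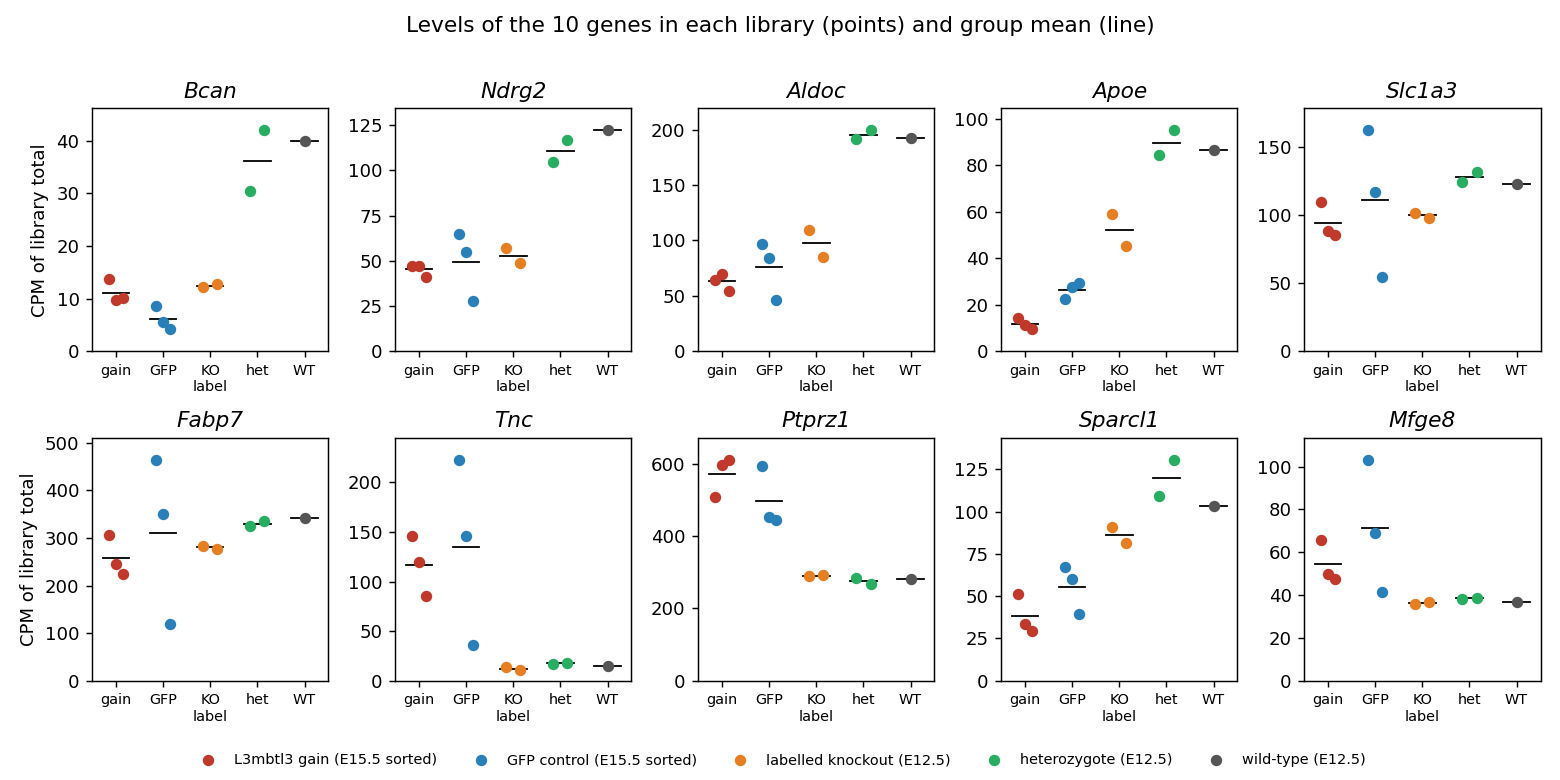
CPM of each of the 10 genes in every library, by group, with points for libraries and a line for the group mean. Bcan, Ndrg2, Aldoc and Apoe sit lower in the 2 libraries labelled knockout than in the 3 E12.5 controls, and Tnc spans 36.1 to 223 CPM among the 3 GFP controls alone.

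The name of the list was checked against other astroglial genes in the libraries, and these were mixed. Gfap, the intermediate filament of mature astrocytes, had 0.0375 to 0.493 CPM over the 11 libraries, S100b 0 to 0.150 CPM and the water channel gene Aqp4 0 to 1.93 CPM. Others that astrocytes share with radial glia or other cells were well above 0. Glul, which encodes glutamine synthetase, had 125 to 202 CPM in all libraries, and Slc1a2, the glutamate transporter GLT-1, had 5.92 to 24.7 CPM in the sorted E15.5 cells and 64.1 to 68.7 CPM in the E12.5 tissue. The word "late" could not be checked, since the stages compared here also differ in sorting, electroporation and tissue.

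In E12.5 dorsal telencephalon, 7 of the 10 genes fell in the libraries labelled knockout relative to the controls and none rose. Those 7 were Bcan, Ndrg2, Aldoc, Apoe, Slc1a3, Fabp7 and Tnc. The log2 fold change was largest for Bcan and smallest for Fabp7. Of all 16361 genes tested, 7.41% passed the same threshold (adjusted p under 0.05), 3.78% of them lower and 3.63% higher. The median log2 fold change of the members was -0.42, against 0.00 over all genes tested, and nothing is read from these counts because the genes were listed with earlier results known. In CPM, 8 members lay lower in both labelled knockout libraries than in every control and 1 higher, where 20.5% and 18.1% of all genes did so (38.6% in either direction).

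Among the matrix genes, Bcan (ENSMUSG00000004892, chromosome 3, 87987531 to 88000230, minus strand, GRCm38) encodes brevican, a chondroitin sulfate proteoglycan of the lectican family that builds perineuronal and glial matrix. It had 12.2 and 12.7 CPM in the libraries labelled knockout, against 30.5 and 42.0 CPM in the heterozygotes and 39.9 CPM in the wild type. The labelled knockouts were close to each other and well under all 3 controls, the wild type falling between the heterozygotes. Bcan fell by 1.57 on the log2 scale (SE 0.15, adjusted p = 0.00134 by edgeR's quasi-likelihood test). Tnc, which encodes tenascin C, a large glycoprotein of the stem cell niche (chromosome 4, 63959785 to 64047015, minus strand), had 13.4 and 10.9 CPM in the libraries labelled knockout, against 17.2 and 17.7 CPM in the heterozygotes and 15.0 CPM in the wild type. The groups did not overlap but lay close together. Its change of -0.45 (SE 0.11) passed edgeR's test narrowly, with an adjusted p of 0.0331. The call was lost without heterozygote replicate 1 (adjusted p = 0.0893 in edgeR) or heterozygote replicate 2 (0.108), and in DESeq2 (0.0508). It was also lost without knockout replicate 2, where the log2 fold change was -0.31. A term for embryo sex gave -0.31 too. Knockout replicate 2 was the only female library compared, so that term in effect leaves it out and is no separate check.

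Sparcl1 (chromosome 5, 104079111 to 104113733, minus strand) encodes hevin, a secreted matricellular protein that astrocytes release at synapses. It had 91.1 and 81.3 CPM in the libraries labelled knockout, against 109 and 131 CPM in the heterozygotes and 104 CPM in the wild type. The groups did not overlap, but the controls spread more widely than the gap between them. The log2 fold change of -0.40 (SE 0.10) did not pass edgeR's test (adjusted p = 0.0696), and it did pass without heterozygote replicate 2 (0.0356 in edgeR), without the wild type (0.0334) and in DESeq2 (0.000465). Mfge8 (chromosome 7, 79133769 to 79149060, minus strand), which encodes a secreted bridge between phosphatidylserine and integrins, had 36.1 and 36.9 CPM in the libraries labelled knockout, against 38.2 and 38.7 CPM in the heterozygotes and 36.8 CPM in the wild type. These 5 values lay within a narrow band, with overlapping groups, and the log2 fold change was -0.05 (SE 0.06, adjusted p = 0.705 in edgeR).

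Ptprz1 (chromosome 6, 22875502 to 23052916, plus strand) is the only receptor of the list, a receptor-type tyrosine phosphatase of radial glia that binds pleiotrophin, midkine and matrix ligands. It had 288 and 292 CPM in the libraries labelled knockout, against 284 and 267 CPM in the heterozygotes and 282 CPM in the wild type. It was the member that lay higher in both labelled knockouts than in every control, by a margin smaller than the spread of the controls. Its log2 fold change was 0.07 (SE 0.04), with an adjusted p of 0.354 in edgeR.

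Ndrg2, Aldoc and Slc1a3 each fell. Ndrg2 (chromosome 14, 51905271 to 51913488, minus strand), which encodes a cytoplasmic protein of the N-myc downstream-regulated family that is abundant in astrocytes, had 57.0 and 48.6 CPM in the libraries labelled knockout, against 105 and 117 CPM in the heterozygotes and 122 CPM in the wild type. Aldoc (chromosome 11, 78322968 to 78327781, plus strand), the brain aldolase of glycolysis, had 109 and 85.5 CPM in the libraries labelled knockout, against 191 and 199 CPM in the heterozygotes and 192 CPM in the wild type. Both genes lay well below every control in each labelled knockout. The log2 fold changes were -1.11 (SE 0.08, adjusted p = 0.000150 in edgeR) for Ndrg2 and -0.99 (SE 0.09, adjusted p = 0.00224 in edgeR) for Aldoc. Slc1a3 (chromosome 15, 8634124 to 8710764, minus strand), the glutamate transporter GLAST, had 102 and 97.5 CPM in the libraries labelled knockout, against 124 and 131 CPM in the heterozygotes and 122 CPM in the wild type. The gap was smaller here, but again no labelled knockout reached a control, and the log2 fold change was -0.33 (SE 0.05, adjusted p = 0.00189 in edgeR).

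Of the lipid carriers, Apoe (chromosome 7, 19696109 to 19699166, minus strand), the apolipoprotein of astrocytes and microglia, had 58.9 and 45.2 CPM in the libraries labelled knockout, against 84.2 and 94.9 CPM in the heterozygotes and 86.7 CPM in the wild type. Apoe fell by 0.76 on the log2 scale (SE 0.11, adjusted p = 0.00679 in edgeR). Fabp7 (chromosome 10, 57784881 to 57788450, plus strand) had 284 and 278 CPM in the libraries labelled knockout, against 324 and 335 CPM in the heterozygotes and 341 CPM in the wild type. Both genes were lower in each labelled knockout than in any control, Fabp7 by the smaller step, with a log2 fold change of -0.24 (SE 0.04, adjusted p = 0.00394 in edgeR). With all 11 libraries in a single fit, which shares its estimate of spread with the sorted cells, no member passed in this comparison in edgeR, although each fold change kept its direction.

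**Figure D2:**
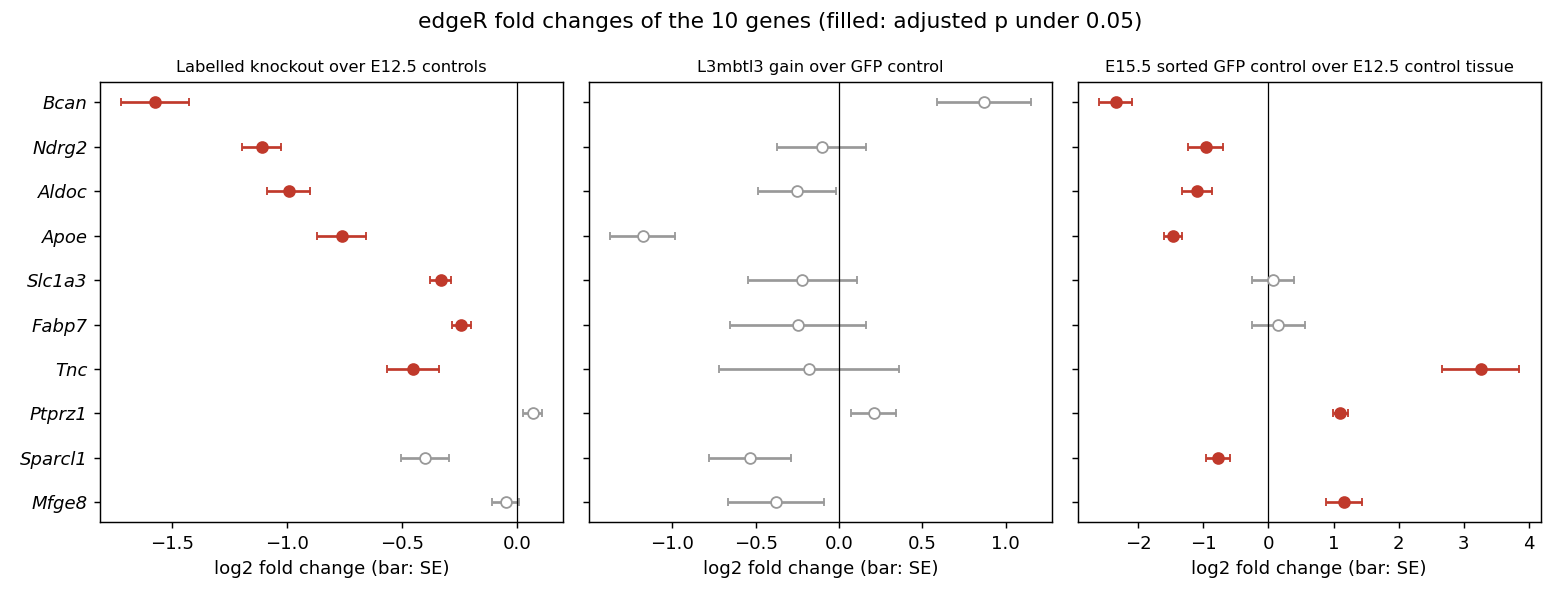
Log2 fold change with its standard error for each of the 10 genes in the 3 comparisons, filled where the adjusted p of edgeR's quasi-likelihood test was under 0.05. The 7 genes that fell in the labelled knockout run from -1.57 (Bcan) to -0.24 (Fabp7), and none passed after gain of L3mbtl3. Tnc stands at 3.26 in sorted E15.5 GFP controls over E12.5 control tissue, which differ in more than stage.

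Other transcripts moved beside these, in a comparison in which 3.78% of all genes tested fell and 3.63% rose. The 8 choroid plexus markers summed to 292 and 285 CPM in the libraries labelled knockout, against 603, 682 and 689 CPM in the E12.5 controls, and 6 of the 8 fell, among them Ttr (log2 fold change -1.60, adjusted p = 0.000543 in edgeR) and Kcne2 (-1.98, adjusted p = 2.77e-06). Summed ventral telencephalon markers were 100 and 78.5 CPM in the libraries labelled knockout, against 41.7, 69.9 and 49.4 CPM in the controls, and 3 of 8 rose (0 to 4 with each library left out). Summed microglial markers were 110 and 99.2 CPM in the libraries labelled knockout, against 100 to 113 CPM in the controls, and summed apical progenitor markers were 3771 and 4079 CPM, against 3648 to 3733 CPM. Summed pan-neuronal markers were 2626 and 2349 CPM in the libraries labelled knockout, against 2758 to 3109 CPM in the controls, and 4 of 12 fell (1 to 7 with each library left out). The part of these cell types in the members' levels was not tested, and in bulk RNA fewer cells of a type cannot be told apart from less RNA per cell.

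**Figure D3:**
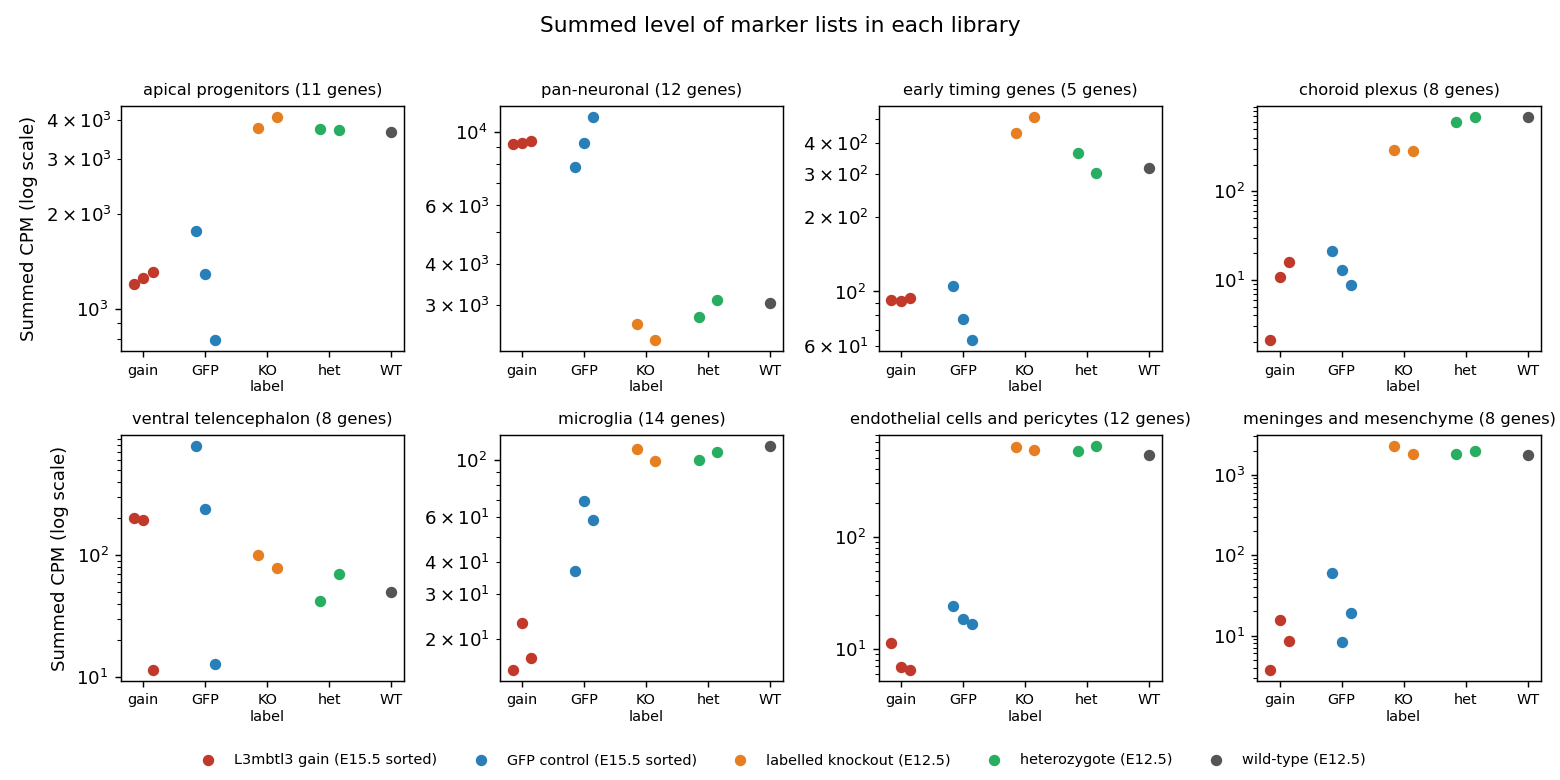
Summed CPM of the marker lists in each library, on a log axis, by group. Choroid plexus markers stand at 285 and 292 CPM in the libraries labelled knockout and at 603 to 689 CPM in the E12.5 controls, while microglial markers overlap between these groups.

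Genes that hold cortical progenitors in an early state went the other way. Of 5 such genes, 4 rose in the libraries labelled knockout and none fell, where 3.63% of all genes tested rose. Their median log2 fold change was 0.86. As this list too was chosen with earlier results known, the count describes it and does not test it. Lin28b, which encodes a repressor of let-7 maturation, had 30.1 and 26.7 CPM in the libraries labelled knockout, against 17.0, 14.6 and 15.3 CPM in the controls. Its groups were clearly apart (log2 fold change 0.86, SE 0.09, adjusted p = 0.000223 in edgeR), as were those of Trim71, a let-7 target of the same pathway, at 6.72 and 7.45 CPM in the libraries labelled knockout, against 3.11, 1.76 and 2.29 CPM in the controls (1.54, SE 0.20, adjusted p = 0.00124 in edgeR). Lin28a (1.64, at only 0.363 to 1.67 CPM in the E12.5 libraries) and Igf2bp1 (0.31, an RNA-binding protein) also passed. Igf2bp1 did not pass without the wild type (adjusted p = 0.0547 in edgeR). Hmga2, a chromatin protein of young neural stem cells, had 187 and 235 CPM in the libraries labelled knockout, against 149, 109 and 114 CPM in the controls, and missed the threshold (0.77, SE 0.21, adjusted p = 0.157 in edgeR).

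Of 34 further astroglial genes outside the list, 30 could be tested in the E12.5 tissue. There 8 fell and none rose in the libraries labelled knockout, with a median log2 fold change of -0.27. Over all genes tested, 3.78% fell and 3.63% rose. Slco1c1, a thyroid hormone transporter of astroglia and brain vessels, had 2.90 and 3.21 CPM in the libraries labelled knockout, against 6.90, 6.90 and 6.41 CPM in the controls (log2 fold change -1.13, adjusted p = 0.00134 in edgeR). Gjb6 (-0.82) and Hopx (-0.35) also passed, though Gjb6 lost its call without knockout replicate 2 (adjusted p = 0.0950 in edgeR) and Hopx when any of the 5 libraries was left out (highest adjusted p 0.161). The count of 8 was 5 without knockout replicate 2, heterozygote replicate 2 or the wild type. Gja1, the connexin gene of radial glia and astrocytes, was at 248 and 224 CPM in the libraries labelled knockout and at 243 to 259 CPM in the controls (-0.08, adjusted p = 0.379 in edgeR).

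Binding partners of the members split by direction. Of 22 tested matrix, ligand and receptor partners, 5 rose and 4 fell in the libraries labelled knockout, where 3.63% and 3.78% of all genes did. These 9 became 6 without either heterozygote and 4 without the wild type. The ligands of Ptprz1 were among those that fell. Ptn, which encodes pleiotrophin, had 251 and 268 CPM in the libraries labelled knockout, against 328, 311 and 339 CPM in the controls (log2 fold change -0.32, adjusted p = 0.00259 in edgeR), and Mdk, which encodes midkine, changed by -0.17 (adjusted p = 0.0339 in edgeR). Cntn1, an adhesion protein that Ptprz1 and tenascins bind, had 9.33 and 6.84 CPM in the libraries labelled knockout, against 14.1, 16.6 and 18.1 CPM in the controls (adjusted p = 0.00329 in edgeR). Hapln1, the link protein that ties lecticans such as brevican to hyaluronan, rose instead, with 19.5 and 18.7 CPM in the libraries labelled knockout, against 13.1, 10.2 and 9.61 CPM in the controls (0.79, adjusted p = 0.00327 in edgeR). Itgb3 (0.90) and Itga9 (0.37), integrin chains known as receptors of tenascin C, rose as well, and the call of Itga9 was lost without knockout replicate 1, either heterozygote or the wild type (adjusted p of 0.162, 0.0666, 0.0696 and 0.101 in edgeR). Ncan, which encodes the lectican neurocan, had 115 and 142 CPM in the libraries labelled knockout and 133, 149 and 181 CPM in the controls, with overlapping groups (-0.26, adjusted p = 0.552 in edgeR).

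Of 15 tested paralogs of the members, 1 rose and 4 fell in the libraries labelled knockout, where 3.63% and 3.78% of all genes did. Ndrg1, a relative of Ndrg2, had 5.20 and 3.12 CPM in the libraries labelled knockout, against 6.94, 10.8 and 10.4 CPM in the controls (log2 fold change -1.15, adjusted p = 0.0432 in edgeR). Ndrg4 (-0.29) and Slc1a4 (-0.23), a neutral amino acid transporter gene related to Slc1a3, fell by less, and Edil3 (0.21), a relative of Mfge8, rose. These calls were fragile, since the 5 became 3 without knockout replicate 1 or heterozygote replicate 1, 1 without knockout replicate 2 and 0 without heterozygote replicate 2 or the wild type.

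After gain of L3mbtl3, none of the 10 genes passed edgeR's test, in a comparison in which 0.0136% of 14698 genes did (2 genes, 0.00680% in each direction), 1264 genes had an unadjusted p under 0.05, and DESeq2 called 119. The median log2 fold change of the members was -0.23, against -0.03 over all genes tested. It was 0.14 without GFP control replicate 1 and -0.57 without GFP control replicate 3, against 0.00 and -0.01 over all genes, and -0.15 without gain replicate 3. Only Apoe and Bcan had groups that did not overlap in CPM, 1 lower and 1 higher, where 8.52% of all genes lay lower and 7.82% higher in that way (16.3% in all).

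Apoe had 14.4, 11.3 and 9.60 CPM in the gain libraries, against 22.5, 27.7 and 29.3 CPM in the GFP controls. Every gain library was below every GFP control, and Apoe had the smallest spread of the 10 genes among the GFP controls, with a highest value 1.30 times the lowest. The log2 fold change was -1.18 (SE 0.20) with an adjusted p of 0.457 in edgeR, and the call depended on the method: adjusted p was 0.000175 in DESeq2, 0.0287 with all 11 libraries in a single edgeR fit and 0.0420 without GFP control replicate 1. Summed microglial markers, a cell type that expresses Apoe, were 15.2, 23.0 and 16.8 CPM in the gain libraries, against 37.0, 69.5 and 58.2 CPM in the GFP controls, and their part in the level of Apoe was not tested. Of these 14 markers, 12 were tested, all 12 had negative log2 fold changes and none passed edgeR's test, though 7 did without GFP control replicate 1 and 7 in DESeq2.

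Bcan had 13.7, 9.72 and 10.03 CPM in the gain libraries, against 8.58, 5.64 and 4.18 CPM in the GFP controls. All gain libraries were above all GFP controls, the lowest gain library by a margin smaller than the spread within either group. For Bcan this was a log2 fold change of 0.87 (SE 0.28, adjusted p = 0.542 in edgeR). Ptprz1, the other member with a positive fold change, had 509, 595 and 610 CPM in the gain libraries, against 594, 451 and 444 CPM in the GFP controls. GFP control replicate 1 lay inside the range of the gain libraries (0.21, SE 0.14, adjusted p = 0.645 in edgeR).

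The remaining members varied widely among the GFP controls. Tnc had 146, 120 and 85.0 CPM in the gain libraries, against 223, 146 and 36.1 CPM in the GFP controls, whose highest value was 6.17 times the lowest. Fabp7 had 306, 246 and 224 CPM in the gain libraries, against 464, 350 and 120 CPM in the GFP controls, a ratio of 3.88 between the highest and the lowest control. The gain libraries lay inside the range of the controls for both genes. Slc1a3 had 110, 88.4 and 84.9 CPM in the gain libraries, against 162, 117 and 54.5 CPM in the GFP controls, and Mfge8 had 65.8, 49.8 and 47.6 CPM in the gain libraries, against 103, 68.9 and 41.6 CPM in the GFP controls. For each of these 4 genes GFP control replicate 1 was the highest of the 6 libraries and GFP control replicate 3 the lowest, and Fabp7, Slc1a3 and Mfge8 placed the 6 libraries in an identical order. The log2 fold changes were -0.18 (SE 0.54) for Tnc, -0.25 (SE 0.41) for Fabp7, -0.22 (SE 0.33) for Slc1a3 and -0.37 (SE 0.29) for Mfge8, each with an adjusted p of at least 0.683 in edgeR. Without GFP control replicate 1 the values of Tnc, Fabp7 and Slc1a3 turned positive, at 0.38, 0.15 and 0.14.

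Ndrg2 had 47.4, 47.2 and 41.3 CPM in the gain libraries, against 65.0, 55.0 and 27.6 CPM in the GFP controls. Aldoc had 64.4, 70.0 and 54.8 CPM in the gain libraries, against 96.9, 83.9 and 46.7 CPM in the GFP controls. Sparcl1 had 51.3, 33.6 and 29.3 CPM in the gain libraries, against 67.0, 60.3 and 39.2 CPM in the GFP controls. In all 3 the gain libraries overlapped the controls through GFP control replicate 3, and the log2 fold changes were -0.10 (SE 0.26), -0.25 (SE 0.23) and -0.53 (SE 0.25), with adjusted p-values of 0.897, 0.724 and 0.585 in edgeR. In the GFP controls these levels were highest in replicate 1 and lowest in replicate 3. The summed apical progenitor and ventral markers had the same order, and the summed pan-neuronal markers the opposite order. Not every marker followed its sum. Over replicates 1, 2 and 3, pan-neuronal Dcx fell (1641, 1377 and 1290 CPM) and apical Lhx2 rose (181, 227 and 271 CPM). The part of those cells was not tested.

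**Figure D4:**
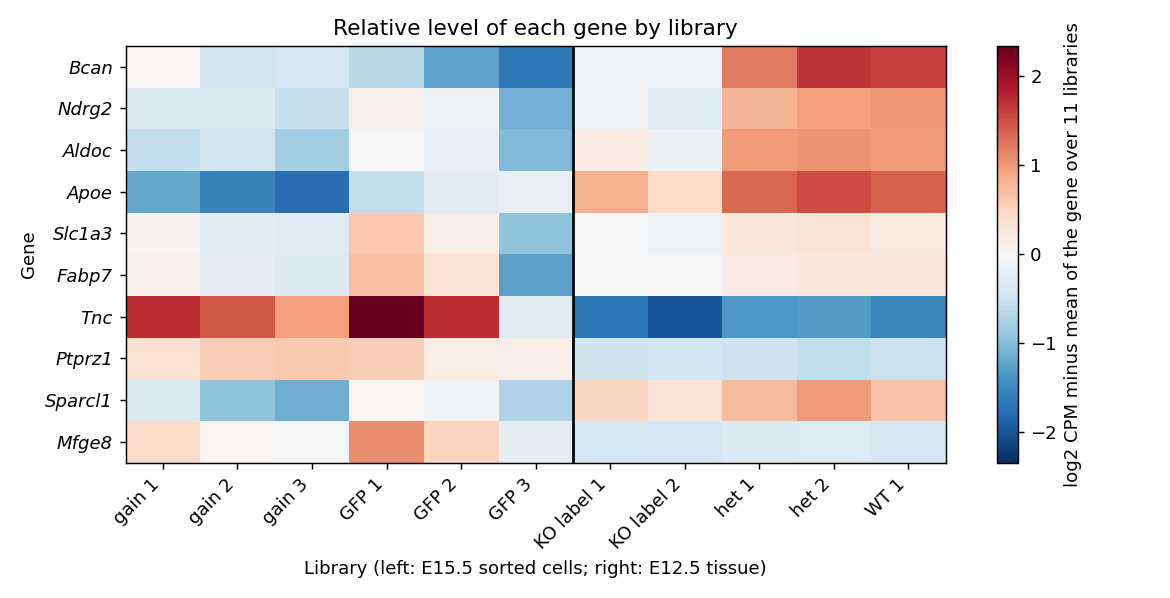
Level of each of the 10 genes in each library on the log2 CPM scale, centred on the gene's mean over the 11 libraries. Among the GFP controls every gene but Apoe is highest in replicate 1 and lowest in replicate 3, and Bcan, Ndrg2, Aldoc and Apoe are lower in the libraries labelled knockout than in the other E12.5 libraries.

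None of the 31 astroglial genes outside the list, the 20 partners, the 15 paralogs and the 3 early timing genes that could be tested passed edgeR's test after gain of L3mbtl3. The smallest unadjusted p among the astroglial genes was that of Glul, which encodes glutamine synthetase (log2 fold change -0.48, SE 0.12, adjusted p = 0.463 in edgeR), followed by Cst3 (-0.33, SE 0.10, adjusted p = 0.519 in edgeR). Glul passed when all 11 libraries were fitted together (adjusted p = 0.0491, edgeR). Among partners and paralogs the smallest were those of Edil3 (0.29, SE 0.08), Sparc, a matricellular relative of Sparcl1 (-0.86, SE 0.24), and Tnr, the tenascin R gene (0.40, SE 0.15), with adjusted p-values of 0.486, 0.491 and 0.562 in edgeR. Of the partners 2 passed without GFP control replicate 1. Igf2bp1 (0.25) and Hmga2 (-0.58) had adjusted p-values of 0.624 and 0.637 in edgeR.

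Between the sorted GFP control cells of E15.5 and the control tissue of E12.5, 3 of the 10 genes were higher and 5 lower in the sorted cells, where 62.3% of 15968 genes passed the same threshold (31.1% higher and 31.3% lower). In CPM the groups of 3 members did not overlap with E15.5 higher and of 5 with E15.5 lower, against 25.6% and 48.5% of all genes (74.1% in either direction). Stage, sorting, electroporation and tissue composition differ together here and cannot be told apart. With scaling by library totals alone the median of all genes was -0.30 on the log2 scale, in place of -0.02 with TMM factors, and the same 3 and 5 members passed in the same directions. The median of the members was -0.36 with TMM factors and -0.61 with library totals. With TMM factors it was -0.60 without GFP control replicate 1 and -0.11 without GFP control replicate 3. Summed endothelial and pericyte markers were 16.7 to 23.9 CPM in the sorted cells, against 537 to 639 CPM in the tissue, summed microglial markers 37.0 to 69.5 CPM against 100 to 113 CPM, summed choroid plexus markers 8.90 to 21.4 CPM against 603 to 689 CPM, and summed pan-neuronal markers 7824 to 11120 CPM against 2758 to 3109 CPM. Their part in the members' levels was not tested.

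Tnc differed most. It averaged 135 ± 93.8 CPM in the sorted E15.5 cells and 16.7 ± 1.45 CPM in E12.5 control tissue (SD, n = 3 each), and even the lowest GFP control, at 36.1 CPM, lay above the highest tissue library, at 17.7 CPM. The log2 fold change was 3.26 (SE 0.59, adjusted p = 0.00317 in edgeR). Ptprz1 averaged 497 ± 84.5 CPM in the sorted cells and 278 ± 8.996 CPM in the tissue (SD, n = 3 each; 1.11, SE 0.11, adjusted p = 0.000249 in edgeR), and Mfge8 averaged 71.2 ± 30.8 CPM in the sorted cells, all 3 of them above the 36.8 to 38.7 CPM of the tissue (1.17, SE 0.28, adjusted p = 0.00965 in edgeR).

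Bcan, Apoe, Aldoc, Ndrg2 and Sparcl1 were lower in the sorted E15.5 cells. Bcan averaged 6.13 ± 2.24 CPM in the sorted cells and 37.5 ± 6.11 CPM in the tissue (SD, n = 3 each), with a log2 fold change of -2.35 (SE 0.26, adjusted p = 0.000384 in edgeR). Apoe averaged 26.5 ± 3.55 CPM in the sorted cells and 88.6 ± 5.62 CPM in the tissue (SD, n = 3 each; -1.46, SE 0.14, adjusted p = 0.000223 in edgeR). Aldoc (-1.10), Ndrg2 (-0.96) and Sparcl1 (-0.78) were lower too, and the call of Ndrg2, at an adjusted p of 0.0186 in edgeR, was lost without heterozygote replicate 2 (0.0539) or the wild type (0.0611). The E12.5 control libraries are also those of the labelled knockout comparison. Slc1a3 averaged 111 ± 53.9 CPM in the sorted cells and 126 ± 4.63 CPM in the tissue, and Fabp7 311 ± 175 CPM in the sorted cells and 333 ± 8.35 CPM in the tissue (SD, n = 3 each). For both, the tissue lay inside the range of the sorted cells, and the log2 fold changes of 0.07 and 0.15 turned to -0.18 and -0.10 with scaling by library totals. Without GFP control replicate 3 both passed as higher in the sorted cells (0.39 and 0.53, adjusted p = 0.0286 and 0.00448 in edgeR), and without GFP control replicate 1 both were negative (-0.28 and -0.23).

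Among the 30 astroglial genes outside the list that could be tested, 7 were higher and 12 lower in the sorted E15.5 cells. Beside these and the counts below, 31.1% of all genes tested were higher and 31.3% lower. Aldh1l1, a folate enzyme widely used as an astrocyte marker, had 63.2, 42.4 and 7.55 CPM in the sorted cells, against 0.938, 1.51 and 1.22 CPM in the tissue (log2 fold change 5.21, SE 0.80, adjusted p = 0.00155 in edgeR). As for Tnc, Fabp7, Slc1a3 and Mfge8, replicate 1 was the highest and replicate 3 the lowest of the GFP controls. Gja1 had 19.6, 15.2 and 7.12 CPM in the sorted cells, against 243, 259 and 248 CPM in the tissue (-3.90, SE 0.32, adjusted p = 0.000129 in edgeR). Id4 (-2.25) and Fgfr3 (-2.08), a transcriptional regulator and a growth factor receptor of progenitors, were lower as well. Of the early timing genes, 4 of 4 tested were lower in the sorted cells, with log2 fold changes of -3.86 for Hmga2, -2.29 for Lin28b and -1.10 for Igf2bp1. Among partners, 10 were higher and 9 lower of 22, with Ncan at 612 to 655 CPM in the sorted cells and 133 to 181 CPM in the tissue (2.32, adjusted p = 4.12e-05 in edgeR) and Hapln1 at 0 to 0.144 CPM in the sorted cells and 9.61 to 13.1 CPM in the tissue. Hapln1 was at or under the limit of 3 counts in every sorted control. Sdc3, a syndecan gene, was higher in the sorted cells (2.73), and Itga8 (-4.26) and Sparc (-2.74) were lower. Of the 15 tested paralogs, 9 were higher and 4 lower, with Ndrg1 at 108 to 319 CPM in the sorted cells and 6.94 to 10.8 CPM in the tissue (4.67, adjusted p = 0.000330 in edgeR) and Ndrg4 also higher (2.58).

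As a description over the 11 libraries, the genes whose log2 CPM ran most like the mean of the members, each centred on its own stage, included Stat3 (r = 0.990), Btg1 (0.976), Nwd1 (0.954) and Cfap43 (0.950), out of 11489 genes. Without centring on stage they were Slc15a2 (0.943), Gm11627 (0.933), Btg1 (0.933), Dbi (0.931) and Rgcc (0.913). The libraries share their stage and, within the sorted cells, the wide spread of GFP controls, so these values have no p. Stat3, which encodes a signal-dependent transcription factor known for its part in astrocyte formation, had 32.1 and 31.7 CPM in the libraries labelled knockout, against 41.8, 43.6 and 39.7 CPM in the E12.5 controls. It had 10.2, 9.05 and 8.71 CPM in the gain libraries, against 14.1, 10.6 and 6.69 CPM in the GFP controls.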

How the data were processed

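Polyadenylated RNA was sequenced from stranded TruSeq libraries as single-end reads, per the labels' protocols. Raw counts of reads were deposited for each gene, made by featureCounts 2.0.1 over exons with the reversely stranded setting, as the file headers record. The submitters' processing notes name HISAT2 2.2.1, SAMtools 1.9, CASAVA 1.9, FastQC 0.11.8 and deepTools 3.3.0 and the build GRCm38. The annotation release is not given in the sources used here. Slc1a3 overlaps Gm37310 on its own strand, so reads in shared exons may be assigned to neither. Tnc and Sparcl1 overlap genes on the opposite strand, from which stranded counting separates them.

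From the counts, CPM were computed on library totals and TPM from the gene lengths of the tables. Counts were tested with edgeR 4.0.16 in R 4.3.3 (robust quasi-likelihood fit, TMM factors, filterByExpr), two-sided, with Benjamini-Hochberg adjustment over all genes tested and a threshold of 0.05. "Rose" and "fell" are used for genes past it. The SE is the absolute log2 fold change divided by the square root of F. The code was tested on simulated data. Groups came from titles and genotype labels. Alternatives were DESeq2 1.42.0, other scalings, no count filter, all 11 libraries in a single fit, a term for embryo sex, the replicate number as a block, and leaving out each library.

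The members and all gene lists were chosen with earlier results of these data known. Of each other list, up to 4 called genes with the largest fold change and a mean of at least 5 CPM were named, or the 2 with the smallest p where none was called. Gfap, S100b, Aqp4, Slc1a2, Glul, Ttr, Kcne2, Ptn, Mdk, Ncan, Gja1, Lin28a, Trim71 and Hmga2 also appear where this rule does not name them, chosen after their values were seen. Genes most like the members had the highest Pearson correlation of log2(CPM + 1) with the mean standardised level of the 10 members, among 11489 genes with a mean of at least 5 CPM. The E14.5 sorted cells that the series' design also lists were not analysed here. A floor of 3 counts covers counting error alone, because reads here carry no molecular identifiers and may be copies. A further gene that the rule names is left out of the text but stays in the counts.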

Additional observations from a re-analysis of the deposited data

How the results depend on the processing

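The number of genes called after gain of L3mbtl3 was 2, and became 119 in DESeq2 and 97 with all 11 libraries in a single fit. With a term for embryo sex the gain effect rests on gain replicate 2, the only male gain library, against the GFP controls, all male. Leaving out each library gave 0 to 415, 415 when GFP control replicate 1 was dropped and 0 when GFP control replicate 2 was, where 693 genes had an unadjusted p under 0.05. Members called there numbered 0, with 1 (Apoe) in DESeq2 and with all 11 libraries, and 0 to 1 with each library left out. In the labelled knockout comparison 1213 genes were called, 2266 without a count filter, 15 with all 11 libraries, 654 with a term for embryo sex and 603 to 1785 with each library left out. Members called there numbered 7, with 0 when all 11 libraries were fitted, 7 in DESeq2 (Sparcl1 in place of Tnc), 8 without a count filter, 6 with a sex term, and 6 to 8 with each library left out. Between sorted E15.5 controls and E12.5 control tissue, scaling by library totals gave 3590 higher and 6525 lower calls, against 4963 and 4992. It also turned the fold changes of Slc1a3 to -0.18 and of Fabp7 to -0.10. With each library left out, fold changes after gain spanned 0 for Ndrg2 (-0.37 to 0.14), Slc1a3 (-0.53 to 0.14), Fabp7 (-0.62 to 0.15) and Tnc (-0.62 to 0.38). Between sorted E15.5 controls and E12.5 control tissue they did so for Slc1a3 (-0.28 to 0.39) and Fabp7 (-0.23 to 0.53). The summed CPM of the 10 members, at 1265 in the gain libraries, 1338 in the GFP controls, 1020 in the labelled knockouts, 1340 in the heterozygotes and 1341 in the wild type, became 1372, 1444, 925, 1212 and 1208 with TMM factors over all libraries. The cause of these shifts was not tested.

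Same-numbered gain and GFP libraries correlated in their deviations from the group means at 0.180, 0.00997 and 0.257. For gain replicates 1 and 3 the same-numbered control was the best match. Gain replicate 2 correlated best with GFP control replicate 1 (0.115). These values do not settle whether the numbers mark pairs, and the main fit did not take them as such. With the replicate block, 3 genes were called after gain, where Tnc turned to 0.10. The members' median log2 fold change there was -0.09 with the block, against -0.23 without it. The SE fell for every member but Apoe and Ptprz1, for Tnc from 0.54 to 0.32, and no member passed. In the labelled knockout comparison 948 genes were called (6 members, Tnc at an adjusted p of 0.0595 in edgeR). Between sorted E15.5 controls and E12.5 control tissue, 10529 genes and all 10 members passed. There GFP control replicate 3 was alone in its block, so the block in effect left it out. All 10 members also passed without that library, and the members' median was -0.11 in both fits.

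The small number of libraries limits every comparison, and so does the spread among GFP controls. After gain, embryo sex is a limit too, since all GFP controls were male and gain replicate 2 was the only male gain library. With a sex term the gain effect rests on that library alone, so the fit cannot show the part of sex. Depth does not limit the members, which all lay far above 3 counts.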
